A study of Homo sapiens with 18 samples.

Results

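The response of empty-vector HCT116 cells to an hnRNPK expression construct was followed in 6 of the 18 libraries of the series, 3 named Ctrl_hnRNPK and 3 named Ctrl_NC. HCT116 is an established human line of colorectal carcinoma epithelium. All 6 libraries came from cells that stably carried the empty control vector, a lentiviral vector with GFP and puromycin resistance, so they share that vector, its selection and the expression of GFP. Ctrl_hnRNPK cells also received a construct with the complete HNRNPK cDNA, and Ctrl_NC cells received the negative control (NC) of that construct. The vector of the cDNA is named differently in the sources (pTSB or pCDNA3.0). Whether the stable line was a clone or a pool, and the time between transfection and harvest, are not given in the sources used here. The other 12 libraries hold the same pair of treatments in cells that overexpress the long noncoding RNA CRLM1 or its antisense sequence. Every gene that passed a filter on low counts was compared, with each hnRNPK library also set apart against the Ctrl_NC libraries.

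hnRNPK belongs to the heterogeneous nuclear ribonucleoproteins, proteins that accompany RNA from transcription to translation. It binds single-stranded C-rich stretches of RNA and DNA through KH domains, a fold it shares with the poly(C)-binding proteins PCBP1 to PCBP4. Through such contacts it takes part in transcription, splicing, mRNA stability and translation, and in colorectal and other carcinoma cells it is an abundant protein. In HCT116 control cells the study saw more of it in the cytoplasm than in the nucleus. In bulk RNA a rise in a share of the cells and a smaller rise in every cell cannot be told apart, and this holds for each gene below.

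Total counts ran from 19825572 to 27039520 per library. Levels are given as CPM, counts relative to the library total scaled by TMM, and differences as log2 values. The hnRNPK libraries did not form 1 group. Across 14607 genes, which are not independent replicates, Pearson's r of log2 CPM was 0.991 between hnRNPK replicates 1 and 2. The library labelled hnRNPK replicate 3 correlated with these at 0.962 and 0.957 and with the Ctrl_NC libraries at 0.986 to 0.987. The Ctrl_NC libraries correlated with each other at 0.990 in all 3 pairs. The defining epithelial genes EPCAM, CDH1, KRT8 and KRT18 were present in every library. Of 6 fibroblast genes only COL1A2 and LUM, and of 6 leukocyte genes only CD14, had no count in any of the 6 libraries. The fibroblast genes summed to 19.9 to 24.3 CPM in Ctrl_NC and 14.8 to 23.9 CPM with the construct. The leukocyte genes summed to 3.51 to 3.87 and 1.99 to 5.25 CPM, and 4 endothelial genes to 0.350 to 0.387 and 0.207 to 0.659 CPM. The study left hnRNPK replicate 3 out of its own comparisons because of its profile. That choice rests on the outcome, so the test of all 6 libraries is the main one and the test without replicate 3 is given beside it. "Rose" and "fell" below mean an adjusted p of at most 0.05 in the edgeR test without replicate 3, and "called" adds a fold change of at least 2 or at most 0.5.

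HNRNPK itself (chromosome 9, 83968083 to 83980631, minus strand, GRCh38) was the first gene examined, since the construct should raise it. Its level was 447, 457 and 463 CPM in Ctrl_NC replicates 1 to 3, with a mean of 456 ± 7.91 CPM (SD, n = 3), and 593, 618 and 461 CPM in the hnRNPK replicates. Replicates 1 and 2 lay above the Ctrl_NC range and replicate 3 lay inside it. In the test of all 6 libraries its log2 fold change was 0.29 (SE 0.17, adjusted p = 0.362). Without replicate 3 it was 0.44 (SE 0.05, adjusted p = 9.9e-07), a rise of 1.36-fold. In the 1443 genes with a similar share of G and C in their exons, 41.2% to 43.5%, the median log2 difference from Ctrl_NC was 0.50 in replicate 1, 0.50 in replicate 2 and -0.04 in replicate 3. HNRNPK, with 41.4%, differed by 0.38, 0.44 and 0.02 in the same libraries. Both high libraries thus stood below the median of those genes. With the GC and length trend removed, the log2 fold change of HNRNPK without replicate 3 was -0.13 (SE 0.05, adjusted p = 0.0645). HNRNPK has processed pseudogenes and only uniquely mapped reads were counted, and counts do not separate the construct's transcript from the cell's own, so the HNRNPK level is uncertain. In the library labelled hnRNPK replicate 3 it does not bear out the label, and the name replicate 3 below stands for the library labelled so. In replicates 1 and 2 its rise was smaller than the median of genes with a similar GC content. The HNRNPK counts therefore do not bear out the label there apart from that trend. The study treated HNRNPK as overexpressed and showed its level both from its RNA-seq data and by qRT-PCR. The qRT-PCR is not part of these data.

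As counted, the genes of the related poly(C)-binding proteins PCBP1, PCBP2 and PCBP4 moved the other way from HNRNPK in replicates 1 and 2. PCBP1, which regulates mRNA stability and translation and delivers iron within the cell, had 342, 331 and 342 CPM in Ctrl_NC and 227, 210.2 and 358 CPM with the construct. PCBP2 had 143, 148 and 135 CPM in Ctrl_NC and 102, 101 and 149 CPM with the construct. PCBP4 had 55.0, 56.4 and 59.2 CPM in Ctrl_NC and 39.0, 35.2 and 67.1 CPM with the construct. In each of the 3 genes replicates 1 and 2 were below all Ctrl_NC libraries and replicate 3 was above them. Without replicate 3, PCBP1 fell by 0.60 on the log2 scale (SE 0.06, adjusted p = 1.6e-07), PCBP2 by 0.45 (SE 0.07, adjusted p = 1.2e-05) and PCBP4 by 0.58 (SE 0.09, adjusted p = 1.3e-05). With the GC trend removed, PCBP1 stood at -0.35 (adjusted p = 3.0e-04) and PCBP2 at -0.73 (adjusted p = 3.7e-07), and PCBP4 at -0.06 (adjusted p = 0.672). HNRNPK stood at -0.13 in that fit, so its sign was no longer opposite to theirs. PCBP3 was low, at 0.622 to 1.08 CPM in Ctrl_NC and 0.567 to 0.620 CPM with the construct, and its log2 fold change without replicate 3 was -0.48 (adjusted p = 0.363). The gene of CRLM1 (LINC01767, listed as RP4-710M16.2) had a count of 0 in all 6 libraries, so the empty-vector cells carried no CRLM1 detectable at this depth.

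**Figure D1:**
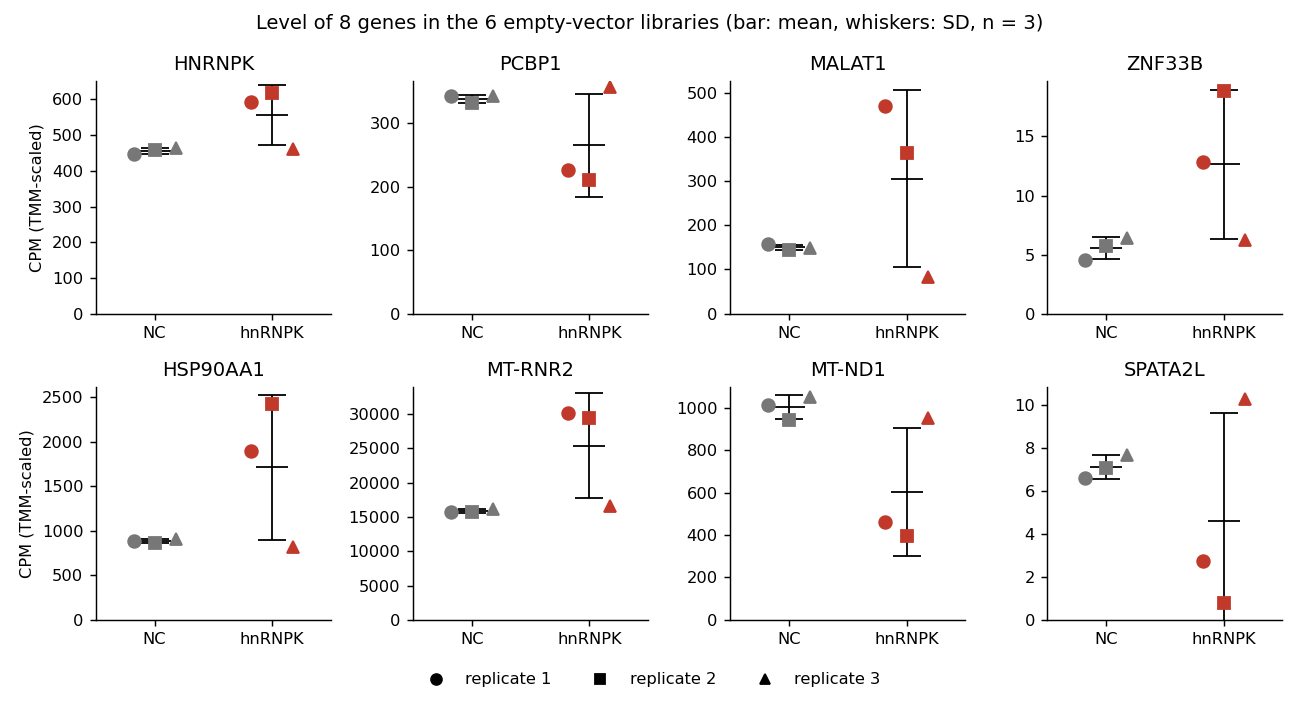
Level of 8 genes in CPM (y axis, from 0) in the Ctrl_NC (grey) and Ctrl_hnRNPK (red) libraries, with replicate 1 as circle, 2 as square and 3 as triangle, and the mean with SD of 3 libraries in black. The red circle and square lie apart from the grey points in every panel. The red triangle lies within them for HNRNPK, ZNF33B and MT-ND1, above them for PCBP1, SPATA2L and MT-RNR2 (16605 against 15739 to 16186 CPM), and below them for MALAT1 and HSP90AA1.

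With all 6 libraries, no gene was called out of 14607 tested (0.0%). The lowest adjusted p was 0.320, with 2246 genes at an unadjusted p under 0.05. DESeq2 called 1 gene, CXCL8, and edgeR without the filter on low counts called 58 of 26849. Without replicate 3, 4448 of 15004 genes rose (29.6%) and 4487 fell (29.9%), and of these 776 were called higher (5.17%) and 256 lower (1.71%). Each hnRNPK library was then tested alone against the 3 Ctrl_NC libraries, under the assumption that a lone library varies like those. Replicate 1 gave 557 genes called higher (3.58% of 15562) and 219 lower (1.41%). Replicate 2 gave 855 higher (5.45% of 15698) and 543 lower (3.46%). Replicate 3 gave 21 higher (0.137% of 15307) and 62 lower (0.405%). The 8935 genes past the threshold without replicate 3 thus stand against none with it.

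For the genes called without replicate 3, that library was not used in the choice, but its differences are taken from the same Ctrl_NC libraries, which were. They are therefore given as a description. Among all 14607 genes, replicate 3 lay above the Ctrl_NC range for 4770 (32.7%) and below it for 4790 (32.8%). Of the 776 genes called higher, 686 were also tested with all libraries. Replicate 3 lay above the Ctrl_NC range for 281 of these, below it for 141 and within it for 264, and its median log2 difference was 0.11, against 1.04 in replicate 1 and 1.20 in replicate 2. Of the 256 genes called lower, 250 were tested with all libraries. Replicate 3 lay above the Ctrl_NC range for 137, below it for 34 and within it for 79, with a median of 0.17 against -1.05 and -1.27. The genes that were lowest in replicates 1 and 2 were thus, on the median, slightly higher than Ctrl_NC in replicate 3. Among all 14607 genes, the 3 hnRNPK libraries together lay above the Ctrl_NC range for 1479 (10.1%) and below it for 1611 (11.0%).

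**Figure D2:**
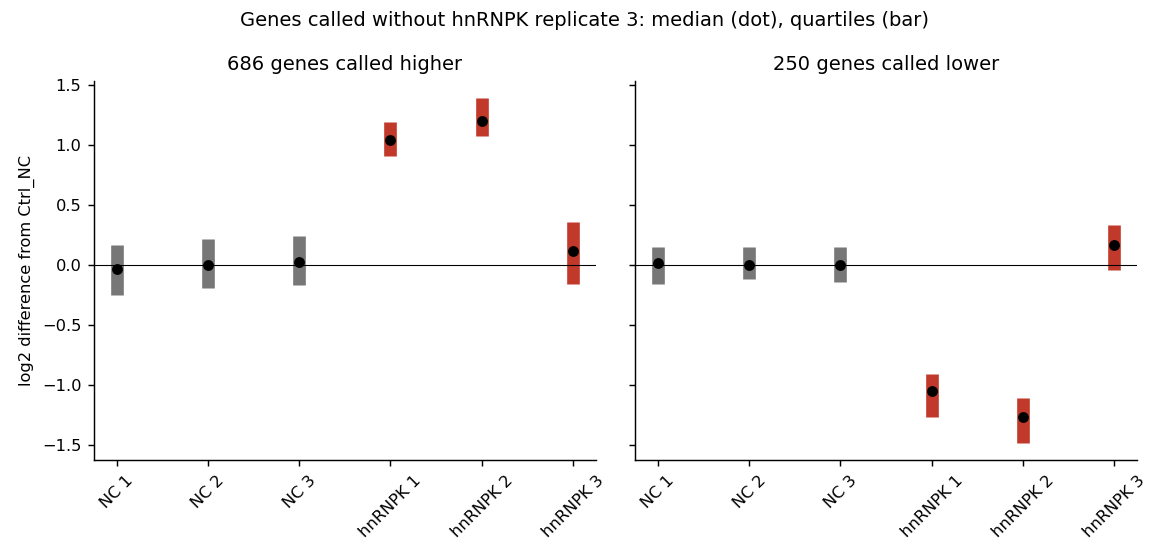
Log2 difference from Ctrl_NC (y axis) in each of the 6 libraries (x axis) for the 686 genes called higher (left) and 250 called lower (right) without hnRNPK replicate 3, with the median as dot and the quartiles as bar. In replicates 1 and 2 the medians are 1.04 and 1.20 on the left and -1.05 and -1.27 on the right, and in replicate 3 they are 0.11 and 0.17; the choice of genes used replicates 1 and 2 and Ctrl_NC, and replicate 3 is measured from the same Ctrl_NC libraries.

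The classes of genes called also differed. Of the genes called higher, 560 were protein-coding, which is 4.50% of the 12443 tested, and 67 were long intergenic noncoding RNAs, 13% of the 517 tested. A further 18 were sense intronic transcripts, 14.2% of 127. Of the genes called lower, 189 were protein-coding (1.52%) and 47 were antisense transcripts (4.64% of 1012), a class of which 49 were called higher (4.84%). The sources used here do not say whether reads were counted by strand, so antisense and intronic transcripts cannot be told apart from the genes they overlap.

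The share of G and C in the exons separated the genes that rose from those that fell. The median GC content was 40.6% (quartiles 38.4% to 43.5%) for the genes called higher and 59.7% (55.6% to 63.5%) for those called lower. Across 14433 genes with a known GC content, Spearman's rho between GC content and the log2 difference from Ctrl_NC was -0.76 in replicate 1, -0.71 in replicate 2 and 0.14 in replicate 3. It was 0.04, 0.02 and -0.06 in the Ctrl_NC libraries, each against the mean of the other 2. These are descriptions across genes, which share libraries and base composition. For C and G on the RNA strand taken apart, rho was -0.75, -0.71 and 0.14 with the share of C and -0.70, -0.66 and 0.12 with the share of G. With the GC content of the promoter in place of the exons it was -0.19, -0.18 and -0.03, with exon length 0.22, 0.19 and -0.13, and with mean expression -0.20, -0.26 and -0.02. In replicates 1 and 2 the GC content of the exons thus tracked the differences most closely among the properties examined. The shares of C and of G are parts of the GC content, so these values cannot tell them apart. The part of binding by hnRNPK in the trend was not tested.

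The median fell from each bin of GC content to the next in replicates 1 and 2. In the lowest of 10 equal bins (27.8% to 38.8%) the median log2 difference was 0.71 in replicate 1 and 0.63 in replicate 2, and in the highest (61.7% to 85.5%) it was -0.65 and -0.66. In replicate 3 the medians of the 10 bins stayed between -0.07 and 0.11. In the lowest bin, 12.1% and 14.8% of genes were at least 2-fold higher in replicates 1 and 2, and 0.831% in replicate 3. In the highest bin, 7.41% and 14.2% were at least 2-fold lower in replicates 1 and 2, and 1.18% in replicate 3. Weighted by counts, the GC content of the libraries themselves was 50.2% in replicates 1 and 2, 52.8% in replicate 3 and 52.5% to 52.6% in Ctrl_NC. The labels give no batch, and the part of library preparation in this trend was not tested.

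**Figure D3:**
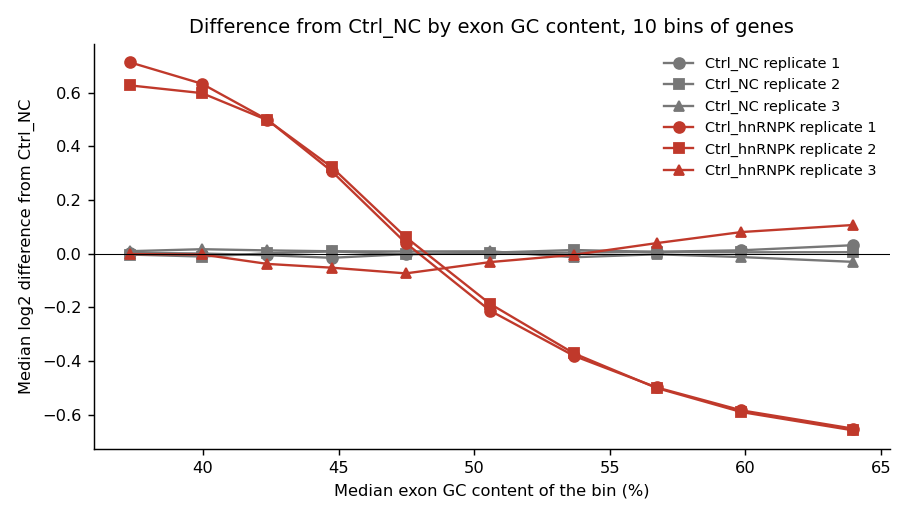
Median log2 difference from Ctrl_NC (y axis) of 10 equal bins of genes against the median exon GC content of the bin in percent (x axis), 1 line per library, grey for Ctrl_NC and red for Ctrl_hnRNPK. hnRNPK replicates 1 and 2 descend from 0.71 and 0.63 in the lowest bin to -0.65 and -0.66 in the highest, while replicate 3 and the Ctrl_NC libraries stay near 0.

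Because of this trend, each result was also computed with every library's trend on GC content and length removed. Without replicate 3, 1373 of 15004 genes were then higher past the threshold (9.15%) and 2539 lower (16.9%), with 166 called higher (1.11%) and 80 lower (0.533%). Of the 776 genes called higher, 116 were still called and 416 passed the test in the same direction, and of the 256 called lower, 41 were still called and 155 passed. None of the 1032 passed in the opposite direction. Across the fold changes, Spearman's rho with GC content was then -0.08, against -0.75 before.

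The difference in composition can be read in the RNA itself. The following 120-base stretches are the first bases of the longest coding part of an exon in 3 genes that rose and 3 that fell, on the RNA strand from 5' to 3', with G and C in capitals. They are shown for the composition of genes with large changes, none of them is known here to be bound by hnRNPK, and by GC content these genes do not all lie at the ends of the trend. They are exon 5 of ZNF33B (chr10:42594580-42594699), exon 12 of MTIF2 (chr2:55243549-55243668) and exon 29 of STAG1 (chr3:136349244-136349363), then exon 3 of SPATA2L (chr16:89698186-89698305), exon 19 of PER2 (chr2:238253583-238253702) and exon 2 of TAGLN (chr11:117203014-117203133), on GRCh38 with Gencode 44, on the plus strand for TAGLN and on the minus strand for the others.
ZNF33B: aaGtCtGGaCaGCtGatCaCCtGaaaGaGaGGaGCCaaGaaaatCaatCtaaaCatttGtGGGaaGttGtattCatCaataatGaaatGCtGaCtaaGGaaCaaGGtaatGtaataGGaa
MTIF2: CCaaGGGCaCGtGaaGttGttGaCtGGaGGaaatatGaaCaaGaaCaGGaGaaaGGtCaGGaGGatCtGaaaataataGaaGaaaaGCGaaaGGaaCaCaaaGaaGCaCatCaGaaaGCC
STAG1: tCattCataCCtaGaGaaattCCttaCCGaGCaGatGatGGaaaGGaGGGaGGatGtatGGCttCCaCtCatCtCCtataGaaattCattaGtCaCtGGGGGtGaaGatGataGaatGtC
SPATA2L: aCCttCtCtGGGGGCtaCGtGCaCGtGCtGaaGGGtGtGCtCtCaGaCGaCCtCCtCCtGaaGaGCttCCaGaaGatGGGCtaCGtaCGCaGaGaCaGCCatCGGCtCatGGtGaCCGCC
PER2: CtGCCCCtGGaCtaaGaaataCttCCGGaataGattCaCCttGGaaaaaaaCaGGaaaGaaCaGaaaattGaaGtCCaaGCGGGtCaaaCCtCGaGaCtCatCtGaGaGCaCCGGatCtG
TAGLN: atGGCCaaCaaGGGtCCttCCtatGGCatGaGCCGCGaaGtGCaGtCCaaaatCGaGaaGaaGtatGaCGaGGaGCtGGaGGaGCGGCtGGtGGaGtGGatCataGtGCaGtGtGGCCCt
The share of G and C over all exons was 40.8% in ZNF33B, 43.8% in MTIF2 and 39.0% in STAG1, and 68.2% in SPATA2L, 53.5% in PER2 and 56.5% in TAGLN. In the stretch of PER2 it was 45.8%, close to the 42.5% of MTIF2 and STAG1, so a stretch need not have the composition of its gene.

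The 12 genes with the largest rise without replicate 3 included long noncoding RNAs and regulators of transcription, RNA and chromatin. MALAT1, a noncoding RNA of nuclear speckles, had 157, 145 and 148 CPM in Ctrl_NC and 470.2, 362 and 83.0 CPM with the construct. Replicates 1 and 2 were far above the Ctrl_NC range and replicate 3 was below it. MALAT1 rose by a log2 value of 1.51 (SE 0.09, adjusted p = 1.5e-08), and in replicate 3 alone it differed by -0.85. TUG1, another long noncoding RNA, had 14.4, 14.1 and 18 CPM in Ctrl_NC and 37.3, 46.6 and 16.5 CPM with the construct. ZNF33B, a zinc finger protein, had 4.53, 5.71 and 6.37 CPM in Ctrl_NC and 12.8, 18.9 and 6.24 CPM with the construct. In both genes replicate 3 lay inside the Ctrl_NC range. The log2 fold change without replicate 3 was 1.47 for TUG1 (SE 0.12, adjusted p = 2.0e-08) and 1.54 for ZNF33B (SE 0.17, adjusted p = 7.4e-07).

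The remaining 9 of the 12 genes with the largest rise were of the same size. MTIF2, an initiation factor of mitochondrial translation, went from 14.8, 14.9 and 18.6 CPM to 38.6, 48.5 and 16.4 CPM. STAG1, a subunit of the cohesin ring that holds sister chromatids together, went from 5.48, 4.04 and 6.67 CPM to 14.0, 14.8 and 6.71 CPM. GALNT5, an enzyme that starts O-linked glycosylation, went from 9.0, 11.0 and 9.81 CPM to 26.1, 25.5 and 13.2 CPM. Replicate 3 was above the Ctrl_NC range in 3 of the 12 genes (GALNT5, STAG1 and COMMD8), below it in 4 and within it in 5. The others were OR51B2, RBM12B, SCAPER, CPNE8 and ZBTB37. Across the 12 genes the log2 fold change without replicate 3 was 1.39 to 1.54 with adjusted p from 1.5e-08 to 4.9e-06, and with all libraries it was 0.96 to 1.19 with adjusted p from 0.320 to 0.328. Their GC content was 34.0% to 43.8%. All 12 passed in the same direction with the GC trend removed, at log2 values of 0.68 to 1.10.

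The largest falls were in GC-rich genes, and replicate 2 was the lowest library in most of them. SPATA2L had 6.60, 7.07 and 7.70 CPM in Ctrl_NC and 2.74, 0.775 and 10.3 CPM with the construct. PER2, a repressor of the circadian clock, had 8.84, 8.32 and 8.0 CPM in Ctrl_NC and 4.40, 1.32 and 11.0 CPM with the construct. In both genes replicates 1 and 2 were below and replicate 3 above all Ctrl_NC libraries. The log2 fold change without replicate 3 was -2.0 for SPATA2L (SE 0.34, adjusted p = 2.5e-04) and -1.53 for PER2 (SE 0.37, adjusted p = 0.00563). TAGLN, an actin-binding protein, had 8.31, 8.16 and 7.19 CPM in Ctrl_NC and 2.74, 2.79 and 6.29 CPM with the construct, below Ctrl_NC in all 3. TAGLN fell by 1.47 on the log2 scale without replicate 3 (SE 0.19, adjusted p = 2.4e-06).

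NR1H2, the sterol-sensing nuclear receptor LXR beta, had 27.3, 31.1 and 28.7 CPM in Ctrl_NC and 13.2, 9.73 and 40.0 CPM with the construct. OSGIN1, a gene induced by oxidative stress, had 38.2, 41.0 and 41.4 CPM in Ctrl_NC and 19.3, 11.2 and 60.4 CPM with the construct. SLPI, a secreted inhibitor of serine proteases, had 14.8, 14.2 and 15.8 CPM in Ctrl_NC and 6.89, 5.08 and 11.6 CPM with the construct. Replicate 3 was the highest of the 6 libraries for NR1H2 and OSGIN1, and for SLPI it was below Ctrl_NC with the other 2. The 12 genes with the largest fall, which also include CTD-3252C9.4, ZNF628, SUSD2, ZCCHC3, UBOX5 and RP11-110I1.6, had log2 fold changes of -2.0 to -1.29 without replicate 3 and of -1.01 to -0.30 with all libraries. Replicate 3 was above the Ctrl_NC range in 9 of them, below it in 2 and within it in 1. Of the 12, 11 passed with the GC trend removed, all but ZNF628 (-0.67, adjusted p = 0.0690). RP11-110I1.6 lies on the strand opposite to HYOU1, which also fell, and their reads cannot be told apart without strand.

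Genes that lay on 1 side of Ctrl_NC in all 3 hnRNPK libraries were looked for apart. The choice fixes their side of Ctrl_NC, and none of the 16 described passed the test with all libraries. The 8 with the largest smallest difference in each direction are described. Among those above, CDKN3, a phosphatase of cyclin-dependent kinases, had 3.83, 4.24 and 4.73 CPM in Ctrl_NC and 8.18, 8.57 and 7.33 CPM with the construct. TWISTNB, a subunit of RNA polymerase I, had 12, 13.5 and 14.2 CPM in Ctrl_NC and 26.6, 20.5 and 20.5 CPM with the construct. Neither gene overlapped between the groups. In the test of all 6 libraries CDKN3 stood at 0.91 on the log2 scale (SE 0.20, adjusted p = 0.320) TWISTNB at 0.77 (SE 0.18, adjusted p = 0.320), so neither passed the test. The others were ZBTB38, NCOA1, NEIL3, COMMD8, TAF1A and TTC28-AS1, with log2 fold changes of 0.70 to 1.15 over the 8 genes. Without replicate 3 and with the GC trend removed, 4 of the 8 passed, CDKN3 at 0.66 (adjusted p = 0.00740) and TWISTNB not (0.16, adjusted p = 0.377).

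Among those below, ARHGEF4, an exchange factor for small GTPases, had 34.8, 30.6 and 36.4 CPM in Ctrl_NC and 21.3, 22.1 and 21.6 CPM with the construct. LRP4, a cell-surface receptor, had 13.5, 13.4 and 11.7 CPM in Ctrl_NC and 7.18, 7.98 and 8.46 CPM with the construct. PFAS, an enzyme of purine synthesis, had 30.8, 27 and 27.8 CPM in Ctrl_NC and 19.4, 20.6 and 20.2 CPM with the construct. In these genes the 3 hnRNPK libraries were close to each other and all below Ctrl_NC. With all libraries the log2 values were -0.64 for ARHGEF4, -0.71 for LRP4 and -0.51 for PFAS, each with an adjusted p of 0.320. The other 5 were ALS2CL, MANEAL, FAM73B, RP11-344H11.4 and MARCH3. Without replicate 3 and with the GC trend removed, 3 of the 8 passed, LRP4 at -0.40 (adjusted p = 0.0434) among them, while ARHGEF4 was at -0.11 (adjusted p = 0.447) and PFAS at 0.03 (adjusted p = 0.884).

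CXCL8, the neutrophil-attracting chemokine IL-8, was the 1 gene called by DESeq2 with all libraries (log2 fold change 1.11, adjusted p = 0.0274). Its level was 53.3, 48.4 and 48.7 CPM in Ctrl_NC and 129, 122 and 70.5 CPM with the construct. All 3 hnRNPK libraries were above Ctrl_NC, replicate 3 the least. edgeR gave a log2 fold change of 1.10 with all libraries (SE 0.23, adjusted p = 0.320) and 1.36 without replicate 3 (SE 0.07, adjusted p = 5.4e-10). In replicate 3 alone the difference was 0.49, and with the GC trend removed the fold change without replicate 3 was 0.66 (adjusted p = 1.9e-06).

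Replicate 3 also had differences of its own. ISG20, an exonuclease that interferon induces, had 12.7, 13.5 and 12.2 CPM in Ctrl_NC and 7.72, 6.28 and 24.1 CPM with the construct. EID3 had 5.86, 5.95 and 5.72 CPM in Ctrl_NC and 11.2, 15.3 and 1.75 CPM with the construct. In both genes replicate 3 lay on the other side of Ctrl_NC from replicates 1 and 2. The difference of replicate 3 alone was 0.91 for ISG20 and -1.74 for EID3. These genes were chosen for their large differences in that 1 library, so the values describe the choice. ACTA2, IRF2BP1, CH507-513H4.6 and RP11-1100L3.8 were the others with the largest rise in replicate 3 (0.84 to 0.96 over the 5), and SNORD14C, RP11-159D12.2, CSAD and NPTN-IT1 those with the largest fall (-1.69 to -1.29 over the 5), as differences from the Ctrl_NC mean. SNORD14C, a small nucleolar RNA encoded within an intron of HSPA8, had 4.85, 6.10 and 5.59 CPM in Ctrl_NC and 9.21, 8.72 and 1.84 CPM with the construct.

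Groups of genes were described by how many members rose or fell without replicate 3, beside the 29.6% and 29.9% of all genes, and in the same way with the GC trend removed, beside 9.15% and 16.9%. With all libraries no member of any list passed the test. Over all genes tested the median log2 fold change was 0.03 without replicate 3 and -0.03 with the trend removed.

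Heat shock genes, which encode chaperones and co-chaperones of the cytosol and of mitochondria, were mostly higher in replicates 1 and 2, with 11 of 15 risen and 2 fallen. HSP90AA1, the inducible HSP90, had 890.2, 859.9 and 905 CPM in Ctrl_NC and 1899.9, 2421 and 821 CPM with the construct. HSPH1, a nucleotide exchange factor of HSP70, had 37.4, 38.4 and 39.6 CPM in Ctrl_NC and 78.4, 95.8 and 29.5 CPM with the construct. Replicate 2 was the highest library and replicate 3 the lowest in both genes, and replicate 3 was below the Ctrl_NC range in 9 of the 15, against 32.8% of all genes. The log2 fold change without replicate 3 was 1.32 for HSP90AA1 (SE 0.08, adjusted p = 1.7e-08) and 1.21 for HSPH1 (SE 0.09, adjusted p = 4.8e-09), and CHORDC1 (1.21) and DNAJB4 (1.08), both co-chaperones, rose likewise. With the GC trend removed 12 of 15 were higher and 0 lower past the threshold, with a median of 0.45 against 0.61 before. The medians by library were 0.49, 0.66 and -0.13.

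The transcripts of the mitochondrial genome divided by class. MT-RNR2, the large ribosomal RNA of mitochondria, had 15754, 15739 and 16186 CPM in Ctrl_NC and 30202, 29433 and 16605 CPM with the construct. MT-ND1, a subunit of respiratory complex I, had 1016, 944 and 1053 CPM in Ctrl_NC and 463, 395 and 952 CPM with the construct. Replicates 1 and 2 were thus above Ctrl_NC for the rRNA and below it for MT-ND1. Replicate 3 lay just above the Ctrl_NC range for the rRNA and within it for MT-ND1, but 10 of the 13 mitochondrial mRNAs were below Ctrl_NC in all 3 hnRNPK libraries, against 11.0% of all genes. MT-RNR2 rose by a log2 value of 0.94 (SE 0.04, adjusted p = 2.4e-11) and MT-ND1 fell by 1.19 (SE 0.07, adjusted p = 1.1e-09). Both rRNAs rose and all 13 mRNAs fell, among them MT-ND2 (-0.93) and MT-ND6 (-1.01), which is encoded on the other strand of the mitochondrial DNA. The rRNAs took 1.70%, 1.71% and 1.75% of counts in Ctrl_NC and 3.65%, 3.64% and 1.79% with the construct, and the mRNAs 2.39%, 2.34% and 2.49% in Ctrl_NC and 1.87%, 1.72% and 2.08% with it. The rRNA share of replicate 3 was close to Ctrl_NC, and its mRNA share lay between those of Ctrl_NC and of replicates 1 and 2. These genes span a GC content of 39.6% to 47.7%. From the GC bin that holds the lower end of this range to the bin that holds the upper end, the median of all genes fell in replicates 1 and 2. It went from 0.63 to 0.04 in replicate 1 and from 0.60 to 0.06 in replicate 2. The median of the mitochondrial mRNAs was -1.11 with the trend removed, against -0.80 before, with 13 of 13 lower.

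Genes of lipid synthesis were mostly lower. In the cholesterol synthesis list, 14 of 24 fell and 3 rose, and with the GC trend removed 12 were lower and 0 higher. DHCR7, a late enzyme of cholesterol synthesis, had 169, 168 and 165 CPM in Ctrl_NC and 87.6, 59.2 and 195 CPM with the construct. It was lowest in replicate 2 and above Ctrl_NC in replicate 3. DHCR7 fell by 1.15 on the log2 scale (SE 0.14, adjusted p = 1.6e-04), and with the trend removed it was at -0.71 (adjusted p = 0.00546). In fatty acid synthesis 8 of 14 fell and 4 rose, and with the trend removed 6 were lower and 2 higher. FASN, fatty acid synthase, had 1354, 1349 and 1297 CPM in Ctrl_NC and 663, 459 and 1501 CPM with the construct, and fell by 1.21 (SE 0.17, adjusted p = 0.00172). ELOVL6, which elongates fatty acids, rose by 1.00 (SE 0.09, adjusted p = 7.1e-08), and its GC content was 42.0% against 65.2% for FASN.

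Of the targets of ATF4, a transcription factor of the amino acid response, 12 of 21 fell and 2 rose, and with the GC trend removed 10 were lower and 0 higher. SLC7A5, a transporter of large neutral amino acids, had 349, 339.6 and 359 CPM in Ctrl_NC and 174, 151 and 344 CPM with the construct, and fell by 1.07 (SE 0.07, adjusted p = 1.8e-09). TRIB3 fell by 1.13 (adjusted p = 2.9e-05) and SESN2, a sensor of leucine, by 1.10 (adjusted p = 3.8e-06). Replicate 3 lay within the Ctrl_NC range for SLC7A5 and above it for TRIB3 and SESN2. Of the chaperones of the endoplasmic reticulum 9 of 19 fell and 8 rose, and with the trend removed 9 were lower and 0 higher. CALR, the lectin chaperone calreticulin, had 1640.4, 1622 and 1622 CPM in Ctrl_NC and 1042, 811 and 1416 CPM with the construct, below Ctrl_NC in all 3 libraries. CALR fell by 0.78 (SE 0.09, adjusted p = 1.7e-05) and HYOU1, another chaperone of this compartment, by 0.81 (SE 0.09, adjusted p = 3.5e-06).

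Genes that answer to growth factors and to ERK signalling were lower too. Of the immediate early genes 15 of 21 fell and 2 rose, but with the GC trend removed 6 were lower and 3 higher, and the median went from -0.52 to -0.13. EGR1, a zinc finger transcription factor, had 81.8, 77.1 and 76.4 CPM in Ctrl_NC and 50.05, 32.4 and 85.2 CPM with the construct. JUND, a subunit of AP-1, had 981, 956 and 899 CPM in Ctrl_NC and 493, 527 and 995 CPM with the construct. EGR1 fell by 0.89 (SE 0.15, adjusted p = 7.9e-04) and JUND by 0.86 (SE 0.06, adjusted p = 2.1e-09), with replicate 3 of both genes above the Ctrl_NC range. Over the list, however, replicate 3 was above Ctrl_NC in 9 genes and below it in 10, against 32.7% and 32.8% of all genes. Of the 21, 7 were below it in all 3 hnRNPK libraries, against 11.0% of all genes. Of the genes of ERK feedback 8 of 10 fell and 0 rose, and with the trend removed 7 were lower and 0 higher. DUSP4, a phosphatase of ERK, had 409.8, 411 and 408 CPM in Ctrl_NC and 264, 249 and 454 CPM with the construct, and fell by 0.64 (SE 0.06, adjusted p = 4.5e-08). ETV5, an ETS factor downstream of ERK, fell by 0.56 (SE 0.08, adjusted p = 5.6e-06), and by 0.66 with the trend removed (adjusted p = 4.8e-06).

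In the cell cycle, genes of mitosis rose more often than they fell, 13 against 5 of 24. Of the 24, 8 lay above Ctrl_NC in all 3 hnRNPK libraries, against 10.1% of all genes. BUB1, a kinase of the spindle checkpoint, had 30.9, 29.9 and 29.3 CPM in Ctrl_NC and 66.9, 60.7 and 32.9 CPM with the construct. CDK1, the kinase that starts mitosis, had 63.4, 66.8 and 60.8 CPM in Ctrl_NC and 127, 119 and 76.9 CPM with the construct. NUSAP1, a spindle protein, had 62.8, 61.9 and 62.1 CPM in Ctrl_NC and 118, 117 and 70.7 CPM with the construct. All 3 genes were above Ctrl_NC in every hnRNPK library, by the least in replicate 3. BUB1 rose by 1.12 (adjusted p = 7.8e-09), CDK1 by 0.99 (adjusted p = 5.2e-09) and NUSAP1 by 0.95 (adjusted p = 4.2e-09), and TOP2A, a topoisomerase, by 1.02 (adjusted p = 1.8e-08). With the GC trend removed 6 of the 24 were higher and 2 lower, and the median went from 0.36 to -0.04, with NUSAP1 at 0.87 (adjusted p = 5.2e-08). Of the genes of DNA replication 14 of 25 fell and 6 rose, and with the trend removed 9 were lower and 5 higher. RRM1, a subunit of ribonucleotide reductase, rose by 1.09 (adjusted p = 1.0e-09), while CDT1, a licensing factor, fell by 0.99 (adjusted p = 2.0e-09).

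Of the genes of glycolysis and hypoxia 17 of 23 fell and 4 rose, and with the GC trend removed 12 were lower and 3 higher. ALDOA, a glycolytic aldolase, had 18008, 17413 and 17802 CPM in Ctrl_NC and 9845, 9205 and 18299 CPM with the construct. P4HA1, which hydroxylates proline in collagen, had 677, 666 and 678 CPM in Ctrl_NC and 1274, 1310.0 and 648 CPM with the construct. In both genes replicates 1 and 2 agreed closely and replicate 3 was just outside the Ctrl_NC range on the opposite side. Over the list, replicate 3 was below Ctrl_NC in 14 of 23 genes and above it in 5, against 32.8% and 32.7% of all genes. Of the 23, 10 were below it in all 3 hnRNPK libraries, against 11.0% of all genes. ALDOA fell by 0.86 (SE 0.04, adjusted p = 2.4e-10) and P4HA1 rose by 0.97 (SE 0.05, adjusted p = 2.4e-10).

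Of the ribosomal protein genes 23 of 51 fell and 16 rose, and with the trend removed 22 were lower and 10 higher. Among them were RPLP1 of the large subunit, down by 0.90 (adjusted p = 5.1e-09) and RPS24 of the small subunit, up by 0.88 (adjusted p = 1.3e-09). These genes share reads with many processed pseudogenes, which makes them uncertain. Of the hosts of small nucleolar RNAs 6 of 14 rose and 3 fell, and with the trend removed 1 was higher and 6 lower. Of the small structural RNAs 3 of 6 rose and 0 fell, as with the trend removed, with RN7SK, which holds back the elongation factor P-TEFb, at 5.70, 4.86 and 4.6 CPM in Ctrl_NC and 9.01, 8.10 and 6.38 CPM with the construct. RN7SK rose by 0.80 (SE 0.17, adjusted p = 4.8e-04), and its GC content was 58.0%, against the direction of the trend.

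The other hnRNP genes and the known targets of hnRNPK were taken next. Of 25 hnRNP genes 15 rose and 7 fell, and with the GC trend removed 3 were higher and 8 lower, with 7 of the genes that passed changing sign. HNRNPH1, a splicing regulator that binds G-runs, had 141, 142 and 143 CPM in Ctrl_NC and 250.1, 240.3 and 136 CPM with the construct, and rose by 0.82 (SE 0.06, adjusted p = 4.7e-09). RALY had 269, 269.5 and 264 CPM in Ctrl_NC and 155, 146 and 281 CPM with the construct, and fell by 0.79 (SE 0.06, adjusted p = 8.9e-09). For both, replicate 3 was outside the Ctrl_NC range on the opposite side. Of 7 textbook targets tested, 6 fell and 1 rose. EIF4E, the cap-binding factor of translation, had 49.6, 47.6 and 45.7 CPM in Ctrl_NC and 99.5, 101 and 52.4 CPM with the construct, and rose by 1.11 (SE 0.07, adjusted p = 2.1e-09). SRC, a tyrosine kinase, fell by 0.71 (adjusted p = 8.5e-06), CDKN1A, the cell cycle inhibitor p21, by 0.67 (adjusted p = 5.9e-08), and MYC, a growth-promoting transcription factor, by 0.32 (adjusted p = 6.8e-04). TYMP, thymidine phosphorylase, fell by 0.63 (adjusted p = 3.7e-04) and UCP2, a mitochondrial carrier, by 0.54 (adjusted p = 0.0427), while EGR1 is given above. With the trend removed 1 was higher and 2 were lower.

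Expression of 4 genes, BBC3, BMP7, SMURF2 and SMAD6, is given apart because the study chose them from libraries of this series, so their direction is not independent evidence. For BMP7, SMURF2 and SMAD6 the study's rule of choice also bounded the fold change of this same comparison, so its size was limited by that choice. The study also followed the 4 genes by qRT-PCR and immunoblot in CRLM1-overexpressing cells with hnRNPK knocked down, which is not part of these data. BBC3, the p53 target PUMA, had 248, 246 and 213 CPM in Ctrl_NC and 156, 127 and 288 CPM with the construct, and fell by 0.70 (SE 0.09, adjusted p = 5.6e-06). BMP7, a ligand of the BMP pathway, had 20.6, 19.5 and 21.5 CPM in Ctrl_NC and 13.4, 14.7 and 21.4 CPM with the construct, and fell by 0.51 (SE 0.11, adjusted p = 8.7e-04). SMURF2, a ubiquitin ligase of the pathway, had 66.5, 71.2 and 72.8 CPM in Ctrl_NC and 102, 86.5 and 65.0 CPM with the construct, and rose by 0.46 (SE 0.08, adjusted p = 8.6e-05). Replicate 3 lay above Ctrl_NC for BBC3, inside its range for BMP7 and below it for SMURF2. SMAD6, an inhibitor of BMP signalling, had 3.99, 4.97 and 5.16 CPM in Ctrl_NC and 3.73, 4.11 and 3.73 CPM with the construct, with a log2 fold change of -0.24 (adjusted p = 0.323). None of the 4 passed the edgeR test with the GC trend removed. Over the BMP and SMAD list 12 of 22 rose and 5 fell, and with the trend removed 1 was higher and 5 lower. TGFB1, the ligand TGF-beta 1, fell by 0.91 (adjusted p = 1.8e-09) and TGFBR1, a receptor for it, rose by 0.80 (adjusted p = 6.4e-07).

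Immune and stress lists held genes that rose and genes that fell. Of the interferon-stimulated genes 8 of 21 rose and 8 fell, 6 were called higher and 0 lower, and 7 of 21 lay above Ctrl_NC in all 3 hnRNPK libraries, against 10.1% of all genes. These 7 include IFIT1, IFIT2, IFIT3 and IFIT5, interferon-induced RNA-binding proteins at no more than 3.40 CPM in any library, named here after their values were seen. With the GC trend removed 2 of the 21 were higher and 4 lower. As counted, HERC5, an ISG15 ligase, was up by 1.18 (adjusted p = 1.8e-05) and IFI6 was down by 1.00 (adjusted p = 6.2e-07). Of the NF-kB targets and chemokines 5 of 14 fell and 3 rose (3 and 2 with the trend removed), among them BIRC3, an inhibitor of cell death, up by 1.01 (adjusted p = 1.3e-09) and RELB, an NF-kB subunit, down by 1.00 (adjusted p = 6.4e-09). Of the p53 targets 10 of 24 fell and 6 rose (8 and 3 with the trend removed), among them PLK3, a stress kinase, down by 0.87 (adjusted p = 1.2e-06) and RRM2B, a subunit of ribonucleotide reductase, up by 1.04 (adjusted p = 2.5e-08). In each of these pairs the gene that rose had the lower GC content, 43.1% for HERC5 against 56.3% for IFI6, 36.6% for BIRC3 against 63.2% for RELB, and 37.5% for RRM2B against 60.1% for PLK3.

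Epithelial genes summed to 8408 to 8719 CPM in Ctrl_NC and to 6016, 5879 and 9307 CPM with the construct, and 9 of 14 fell and 4 rose. KRT8 and KRT18, the keratins of simple epithelia, fell by 0.60 (adjusted p = 3.8e-08) and 0.93 (adjusted p = 4.6e-09), and CDX2, the transcription factor of intestinal epithelium, fell by 1.07 (adjusted p = 4.7e-04). KRT18 had 959, 973 and 947 CPM in Ctrl_NC and 534, 451 and 995 CPM with the construct, so replicate 3 again lay above Ctrl_NC. Once the GC trend was removed, 5 of the 14 were lower and 1 higher, and the median went from -0.44 to -0.08. In all 3 hnRNPK libraries 3 of the 14 lay above Ctrl_NC and 1 below, against 10.1% and 11.0% of all genes. KRT8, KRT18 and CDX2 are named from the 9 that fell, and the 4 that rose are not named here. Of the mesenchymal genes 3 of 8 fell and 0 rose (4 and 0 with the trend removed), with ITGA5, the fibronectin receptor subunit, down by 0.89 (adjusted p = 4.1e-09) and SNAI1, a repressor of epithelial genes, down by 0.78 (adjusted p = 6.9e-06). Markers of other cell types stayed low: the fibroblast list summed to 19.9 to 24.3 CPM in Ctrl_NC and 14.8 to 23.9 CPM with the construct and the leukocyte list to 3.51 to 3.87 and 1.99 to 5.25 CPM. Their part in the results was not tested.

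Of the zinc finger genes of chromosome 19, 44 of 138 rose and 17 fell, and with the trend removed 8 were higher and 6 lower. ZNF574 had 29.7, 27.1 and 25.4 CPM in Ctrl_NC and 10.3, 12.1 and 41.8 CPM with the construct, and fell by 1.26 (SE 0.12, adjusted p = 9.2e-08). Of the histone genes 8 of 24 rose and 0 fell, and with the trend removed 6 were higher and 0 lower. HIST1H2AC had 19.9, 18.2 and 16.3 CPM in Ctrl_NC and 28.8, 26.4 and 16.1 CPM with the construct, and rose by 0.65 (SE 0.11, adjusted p = 6.6e-05). Many histone and zinc finger genes are near-identical copies, and their counts of unique reads are uncertain.

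**Figure D4:**
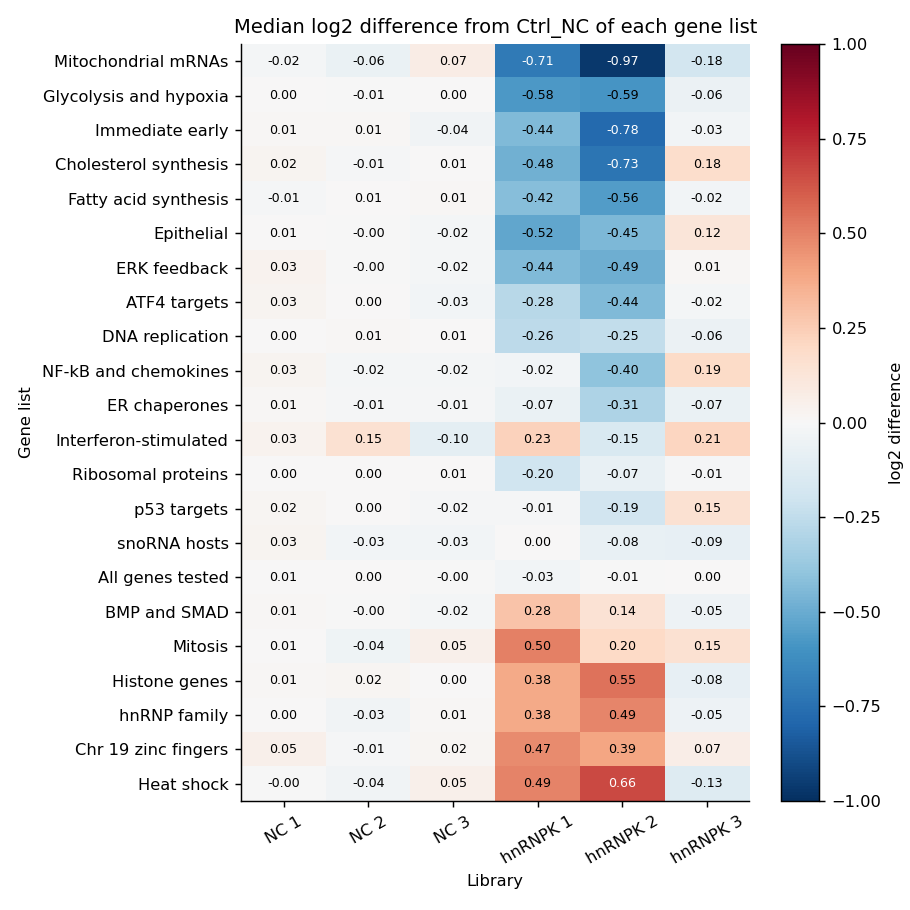
Median log2 difference from Ctrl_NC (colour and printed value) of each gene list with at least 10 members tested and of all genes (rows, ordered by the median fold change without hnRNPK replicate 3) in each of the 6 libraries (columns). hnRNPK replicates 1 and 2 run from -0.71 and -0.97 for mitochondrial mRNAs to 0.49 and 0.66 for heat shock genes, while replicate 3 stands at -0.18 and -0.13 for the same lists and the Ctrl_NC libraries at -0.06 to 0.07.

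**Figure D5:**
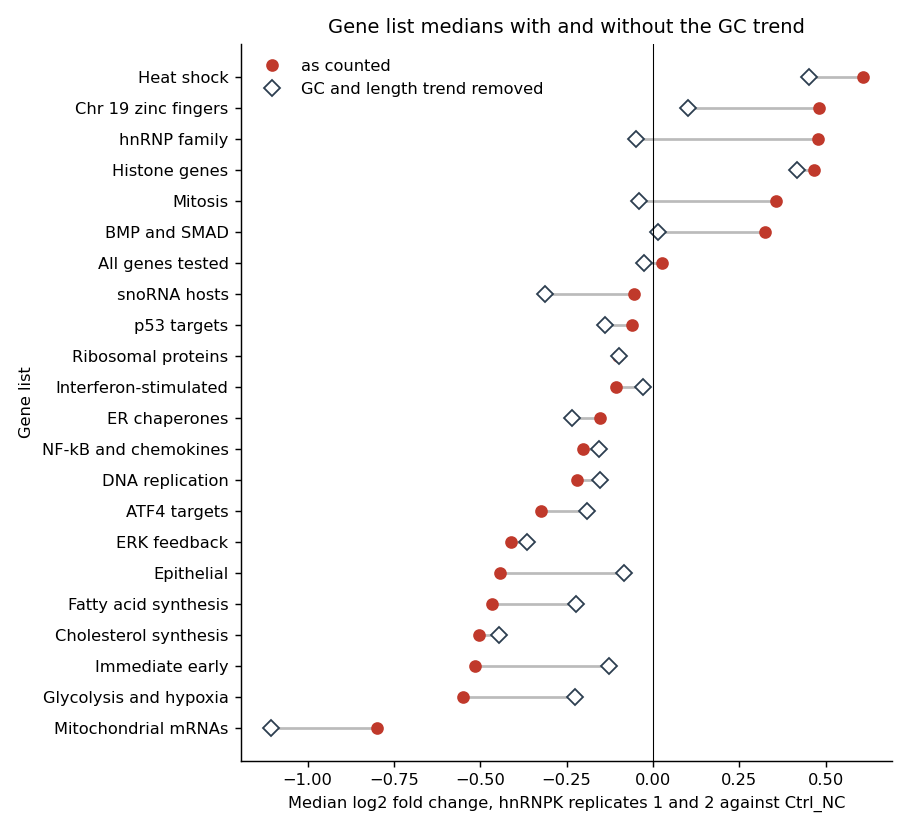
Median log2 fold change of each gene list (rows) without hnRNPK replicate 3, as counted (filled circles) and with the trend on GC content and length removed (open diamonds). Mitochondrial mRNAs move from -0.80 to -1.11 and heat shock genes from 0.61 to 0.45, while mitosis genes move from 0.36 to -0.04 and hnRNP genes from 0.48 to -0.05.

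The same construct in the other backgrounds, with libraries that the tests above did not use, gave values for the genes called here. In the Antisense background, where 33.4% of all 14501 genes were higher and 30.5% lower past the threshold with all 6 of its libraries, 679 of the 776 genes called higher were tested, of which 538 were higher and 0 lower, with a median log2 fold change of 0.93. Of the 240 genes called lower that were tested there, 162 were lower and 2 higher, with a median of -0.85. In the CRLM1 background, also without its hnRNPK replicate 3, 29.5% of 14685 genes were higher and 29.1% lower. Of 702 genes called higher that were tested there 447 were higher and 0 lower (median 0.83), and of 247 called lower 179 were lower and 0 higher (median -0.87). The fold changes in these backgrounds were computed without removing a GC trend, and the 2 sets of called genes differ in GC content. The part of a GC trend in this agreement was not tested. The lists did not all follow. The ATF4 targets, 12 of 21 lower and 2 higher here, had 12 higher and 4 lower in the Antisense background and 3 higher and 10 lower in the CRLM1 background, and the mitochondrial mRNAs were lower in 12 of 13 there and in 13 of 13 in the CRLM1 background.

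The difference between backgrounds was tested by the interaction term of 12 libraries. No gene passed, for the Ctrl background minus CRLM1 (0 of 15188, 0.0%, with 221 genes at an unadjusted p under 0.05) or minus Antisense (0 of 15346, 0.0%, with 2179). Without hnRNPK replicate 3 of both backgrounds, 534 of 15485 genes (3.45%) differed from the CRLM1 background and 2519 of 15695 (16.0%) from the Antisense background. The 4 genes that differed from the CRLM1 background by at least 2-fold are named after their values were seen: ETV1 (difference of the log2 fold changes 1.08, adjusted p = 0.0322) and PDK4 (1.93, adjusted p = 0.00439) on the higher side in empty-vector cells, and MGC32805 (-1.04, adjusted p = 0.00677) and CXCL3 (-1.29, adjusted p = 0.0264) on the lower. PDK4, a kinase that restrains pyruvate dehydrogenase, had 1.6, 1.36 and 1.72 CPM in Ctrl_NC and 4.11, 4.65 and 2.22 CPM with the construct. With the replicate block, 2 of 15346 genes differed from the Antisense background, both ATF4 targets and both named after their values were seen. They were SLC7A11, a cystine transporter (-1.83), and ASNS, asparagine synthetase (-1.68), each with an adjusted p of 0.0139. Neither passed with all libraries and no block, and samples that share a number did not deviate together in empty-vector cells.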

How the data were processed

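RNA of 18 libraries was measured by paired-end sequencing, and 6 were used for the tests within empty-vector cells. The authors trimmed reads with FASTX-Toolkit, aligned them with TopHat2 to GRCh38 and deposited raw counts of uniquely mapped reads per gene for 31004 genes and FPKM values for 30879. Whether counting used strand is not given in the sources used here. Groups came from the labels, which number the replicates without saying whether they came from separate cultures, so p-values measure the spread between these samples, which may be technical. The members and gene lists were chosen with earlier results of these data known.

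Counts were tested with edgeR 4.0.16 (quasi-likelihood, robust, TMM, filterByExpr, two-sided, Benjamini-Hochberg) in R 4.3.3, with a prior count of 2 for log2 CPM. The GC and length trend was removed as loess offsets per library (span 0.5) from exons of Gencode 44. Alternatives were DESeq2 1.42.0, limma 3.58.1 on log2(FPKM + 0.1) and log2(FPKM + 1), other scaling and filters, a replicate block, and each library left out. Genes were named by rule: HNRNPK and its relatives; 12 genes a direction with the largest change called, at a mean of at least 5 CPM; 8 a direction outside the Ctrl_NC range in all 3 hnRNPK libraries; 5 a direction in replicate 3 alone; and up to 4 a list. Some genes that this rule names are not reported here. The fits were tested on simulated data.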

Additional observations from a re-analysis of the deposited data

How the results depend on the processing

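With all 6 libraries no gene was called, and this held with RLE size factors, in the 3 limma fits, in the single fit of 18 libraries and with the GC trend removed. Without the filter on low counts 58 genes were called (57 higher, 1 lower) and 253 passed. DESeq2 called 1. Without hnRNPK replicate 3, 1032 were called (776 higher, 256 lower) and 8935 passed, and with the GC trend also removed 246 (166 and 80) and 3912. Leaving out each library in turn gave 0 to 1032 genes called, 0 to 776 higher, 0 to 256 lower and 0 to 8935 past the threshold, the upper values all without replicate 3. The cause of these shifts was not tested.

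Samples that share a replicate number did not deviate together (r = 0.013, -0.022 and -0.053), so they share only a number. With the replicate block 0 genes passed, and 0 with the block and the GC trend removed. For the difference between backgrounds, leaving out the third hnRNPK libraries gave 534 genes (CRLM1) and 2519 (Antisense), and the replicate block gave 0 and 2.

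For HNRNPK the log2 fold change was 0.28 with the block, -0.077 with the GC trend removed, -0.079 with block and trend removed, and -0.13 with the trend removed and replicate 3 left out. Leaving out 1 library gave 0.21 to 0.44, the upper value without replicate 3 past the threshold. With the GC trend removed, and with the block as well, the signs of BBC3 (0.019 and 0.011), PCBP4 (0.025 and 0.021), SMAD6 (0.037 and 0.032), SMURF2 (-0.12 and -0.13), TYMP (0.15 and 0.14) and UCP2 (0.092 and 0.061) turned. With replicate 3 left out too, SMAD6 (0.18), SMURF2 (-0.14), FAM73B (0.046), MANEAL (0.028) and PFAS (0.026) turned. Leaving out 1 library gave -0.63 to 0.035 for TYMP, -0.54 to 0.12 for UCP2 and -1.30 to 0.060 for ZCCHC3. Of the 105 genes followed, none passed with all libraries, 103 passed without replicate 3 and 81 kept the direction and passed with the GC trend also removed, 34 passed with all libraries and no filter and 1 in DESeq2.

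Spearman's rho with GC content, -0.76, -0.71 and 0.14 in hnRNPK replicates 1 to 3, was -0.86, -0.82 and 0.16 in protein-coding genes of at least 5 CPM, and -0.19, -0.18 and -0.028 with the GC content of promoters. It was 0.22, 0.19 and -0.13 with exon length and -0.20, -0.26 and -0.021 with mean log2 CPM. A count of 3 in 1 library, the floor used, was 0.116 to 0.160 CPM, so genes near that level are not measured here.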
